A study of Mus musculus with 23 samples.

Results

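The 10 genes described here were *Glul*, *Oat*, *Rhbg*, *Slc1a2*, *Tbx3*, *Lgr5*, *Rnf43*, *Znrf3*, *Axin2* and *Sp5*, Wnt target genes of the pericentral hepatocyte. The members were found by gene name on the array. All 10 genes had a probe, with 19 probes in all out of 56605 on the array, and 17 of these probes were kept by the filter on dim signal, so that all 10 genes were measured among 21056 genes. One probe of *Axin2* and 1 probe of *Slc1a2* were too dim, and no member probe was saturated on any array. For 5 genes more than 1 probe was kept, and the gene was then read from its brightest kept probe.

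Hepatocytes differ along the axis from the portal vein to the central vein. Endothelial cells of the central vein release Wnt ligands and the R-spondin RSPO3, which hold β-catenin active in the hepatocytes around them. These cells express glutamine synthetase and take up the ammonia that periportal urea synthesis leaves over. R-spondin binds LGR receptors and removes the ubiquitin ligases RNF43 and ZNRF3, which otherwise clear Frizzled receptors from the cell surface. Several of the genes in this circuit, *Axin2* and *Znrf3* among them, are themselves Wnt targets and act as negative feedback.

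Liver RNA of 23 male C57BL/6J mice was hybridised to Agilent 1-colour arrays, 1 array per mouse. Wild type (WT) mice and *Pxr*-/- mice, which lack the nuclear receptor PXR (gene *Nr1i2*) throughout the body, received pregnenolone 16α-carbonitrile (PCN), a rodent PXR ligand, by intraperitoneal injection at 100 mg/kg in corn oil once a day for 4 days, or corn oil alone (CONT). Livers of fed mice were collected 6 h after the final dose. There were 6 corn oil and 5 PCN mice among the WT animals, and 6 of each among the *Pxr*-/- animals. The WT animals were bought in whereas the knockout colony was kept in house, so that genotype and colony cannot be told apart. Levels are normalized log2 signals and changes are log2 differences from a limma fit with a term for the array washing batch. "Past the test" means a Benjamini-Hochberg adjusted p of at most 0.05 over all 32087 kept probes, and "called" adds a fold change above 1.5; the count without the fold limit was added after the data were seen.

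The promoter windows of 2 members are printed because each holds a sequence related to the Wnt pathway at 2 places. TCF/LEF factors, the DNA-binding partners of β-catenin, recognise a site with the core CTTTGA. This core was searched on both strands (the other strand reads TCAAAG) in the RefSeq windows of 250 bases before to 50 bases after each gene start in the assembly GRCm38.p6. Windows were given for 6 members (*Glul*, *Axin2*, *Rnf43*, *Sp5*, *Oat* and *Slc1a2*; *Rnf43* had 2 windows). The window of *Sp5* and that of *Slc1a2* each held the core at 2 places. Of all 32851 windows, 1.73% held 2 or more matches. At least 1 match was held by 16% of all windows. The stretches that span both matches lie on the plus strand, at chr2:70474707-70474836 for *Sp5* and at chr2:102706220-102706378 for *Slc1a2*, with the core in capitals.
Sp5: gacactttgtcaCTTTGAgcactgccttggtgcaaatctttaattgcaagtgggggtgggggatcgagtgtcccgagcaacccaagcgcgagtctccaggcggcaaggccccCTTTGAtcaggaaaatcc
Slc1a2: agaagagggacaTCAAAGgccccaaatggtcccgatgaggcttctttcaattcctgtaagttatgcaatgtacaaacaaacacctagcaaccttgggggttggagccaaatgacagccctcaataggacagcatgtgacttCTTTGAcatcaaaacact
The windows of the other 4 genes held no such core. A match describes the letters in this window and is not a binding site.

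The treatment and the genotype were checked first. *Cyp3a11*, a classical PXR target, had a level of 13.62 ± 0.42 in WT CONT and 17.16 ± 0.16 in WT PCN mice (SD, n = 6 and 5), a rise of 3.55 (adjusted p 4.12e-10). Without the receptor it was 14.31 ± 0.52 without and 14.62 ± 0.37 with PCN (n = 6 each), and the change of 0.31 did not pass the test. The signal of *Nr1i2* itself lay between 10.63 and 12.46 in WT mice and between 10.16 and 12.41 in *Pxr*-/- mice. Its probe did not separate the genotypes, and whether it lies inside the deleted part is not given in the sources used here. Between 29510 and 33321 probes were well above background on each array. One array, WT PCN replicate 4, stood apart in several members, although its *Cyp3a11* level of 17.28 was as high as in the other treated WT mice. Results that rest on it are therefore given with and without it.

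PCN lowered several of the pericentral Wnt targets in WT mice by a modest amount. Of the 10 genes, *Lgr5*, *Rnf43*, *Znrf3* and *Slc1a2* fell, none rose, and 6 did not pass the test. Over all genes 12.4% fell and 11.6% rose by the same test. The median change over the 10 genes was -0.36, beside -0.02 over all genes, and 8 of the 10 changes were below 0, beside 54.4% of all genes. No member was called, since no change that passed the test exceeded 1.5-fold. Over all genes 2.39% were called lower and 3.79% higher. Without WT PCN replicate 4, *Rnf43* and *Slc1a2* no longer passed, *Oat* and *Rhbg* passed as higher, and *Lgr5* and *Rhbg* were called. With the authors' log2 values *Lgr5* (adjusted p 0.0689), *Rnf43* (0.133) and *Slc1a2* (0.266) no longer passed, and *Oat* rose by 0.63 (adjusted p 0.0144). In those values the median of all genes was shifted by 0.12 in this comparison. Relative to that median *Lgr5* changed by -0.52, *Rnf43* by -0.52, *Slc1a2* by -0.35 and *Oat* by 0.52. *Oat* also passed as higher with median centring (0.49) and with the processed signal (0.46). In the first and the second washing batch alone, *Znrf3* changed by -0.60 and -0.42, *Lgr5* by -0.71 and -0.34, *Rnf43* by -0.77 and -0.29 and *Slc1a2* by -0.67 and -0.05. *Znrf3*, *Rnf43* and *Slc1a2* passed in the first batch and none in the second.

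**Figure D1:**
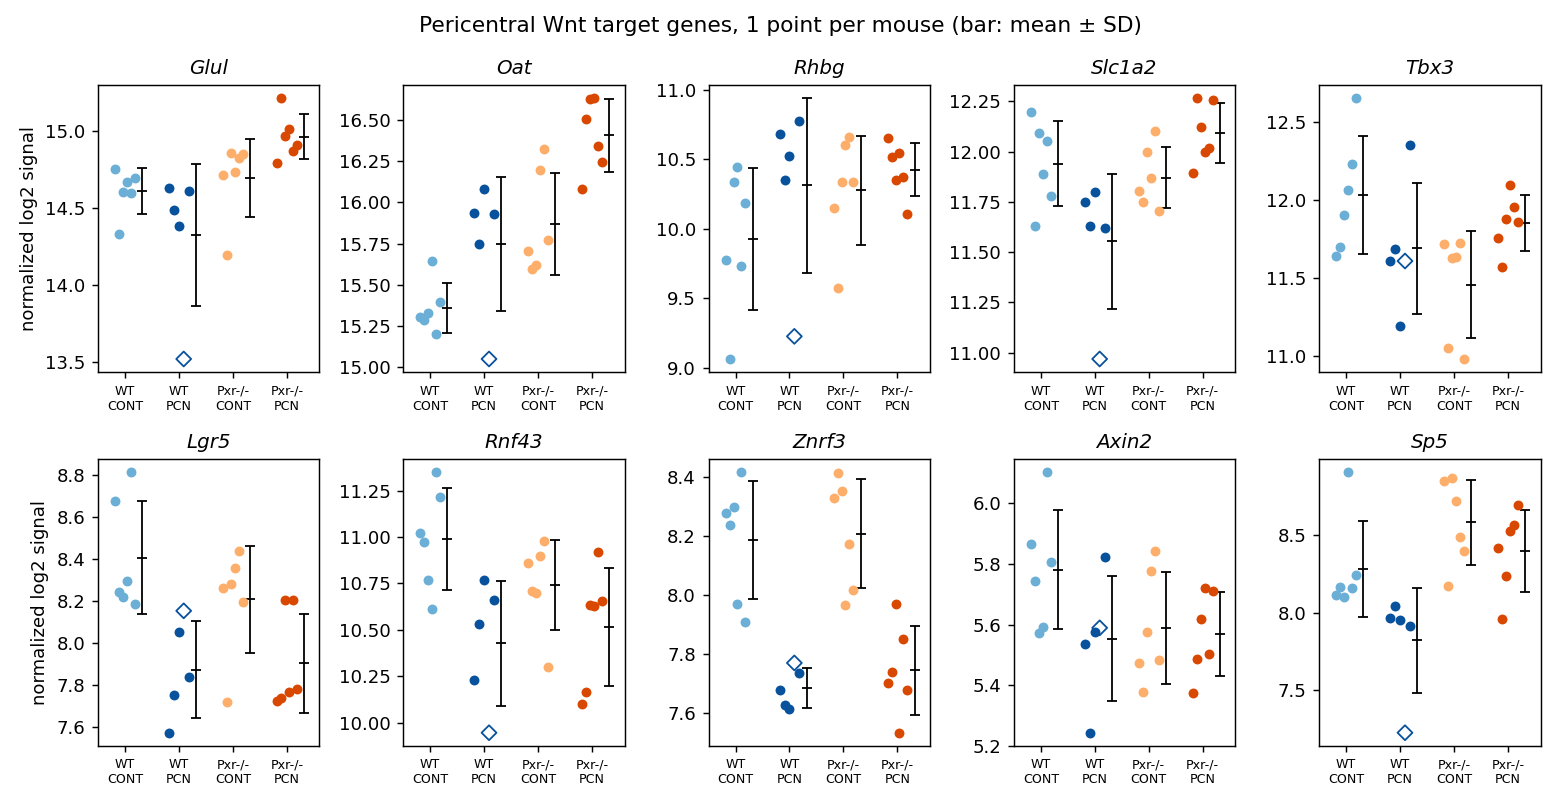
Normalized log2 signal (vertical axis, a separate range for each gene) of the 10 genes in the 4 groups, with 1 point per mouse and the mean ± SD beside the points. The open diamond is WT PCN replicate 4, which is the lowest WT PCN mouse in *Glul*, *Oat*, *Rhbg*, *Slc1a2*, *Rnf43* and *Sp5* but not in *Lgr5*, *Znrf3*, *Axin2* or *Tbx3*.

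*Znrf3*, which encodes one of the ubiquitin ligases that remove Frizzled, changed most regularly. Its level in WT CONT mice ran from 7.91 through a median of 8.26 to 8.42, and the WT PCN mice had 7.68, 7.63, 7.61, 7.77 and 7.74. *Pxr*-/- CONT mice ran from 7.97 (median 8.25) to 8.41 and *Pxr*-/- PCN mice from 7.53 (median 7.72) to 7.97. Every treated WT mouse lay below every WT control, and in *Pxr*-/- mice the groups met only at their edges. The fall was 0.52 ± 0.09 (SE) in WT mice (1.43-fold; adjusted p 0.000246) and 0.46 ± 0.08 in *Pxr*-/- mice (1.38-fold; adjusted p 0.00283). The difference between these falls was -0.05, with a 95% interval from -0.30 to 0.20. The other 2 probes of *Znrf3* gave -0.46 and -0.41 in WT mice, both past the test, and -0.25 and -0.37 in *Pxr*-/- mice, where neither passed (adjusted p 0.12 and 0.0613). *Znrf3* passed the test in both genotypes whichever single array was left out.

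*Rnf43*, its close relative, was read by a probe at chr11:87548944-87549003 (build mm9, as are all probe positions here). WT CONT mice had 10.61 to 11.35 with a median of 10.999, and WT PCN mice had 10.23, 10.53, 10.77, 9.95 and 10.66. The groups overlapped, with 2 treated mice inside the control range. It fell by 0.57 ± 0.17 (1.48-fold; adjusted p 0.0197), and without WT PCN replicate 4, its lowest mouse, the change was -0.44 (adjusted p 0.0673), and without WT CONT replicate 5, it was -0.49 (adjusted p 0.0546). *Pxr*-/- CONT mice ran from 10.30 (median 10.79) to 10.98 and *Pxr*-/- PCN mice from 10.0999 (median 10.63) to 10.92. These ranges overlapped widely, and the change of -0.22 did not pass (adjusted p 0.455; 95% interval -0.56 to 0.11). The second *Rnf43* probe was well above background on only 11 arrays, 5 of them WT CONT and 1 WT PCN, so that its change of -0.19 in WT mice (adjusted p 0.266) is one near the background.

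*Lgr5* encodes an R-spondin receptor and marks the hepatocytes next to the central vein. Its probe lies at chr10:114887403-114887462. The level was 8.18 to 8.81 (median 8.27) in WT CONT mice and 7.57, 7.75, 8.05, 8.15 and 7.84 in WT PCN mice. All 5 treated WT mice lay below all 6 controls. The fall was 0.54 ± 0.14 (1.46-fold; adjusted p 0.00887), and the second probe fell by 0.37 (adjusted p 0.0493). The *Pxr*-/- level was 7.72 to 8.44 (median 8.27) in CONT and 7.72 to 8.20 (median 7.77) in PCN mice. Here 1 control, replicate 2, was as low as the lowest treated mice. Treated replicates 3 and 5, both at 8.20, lay just above control replicate 6 at 8.19. The change of -0.30 did not pass (adjusted p 0.192) but reached -0.42 and passed without control replicate 2 (adjusted p 0.0435). The second probe went the other way in *Pxr*-/- mice, by 0.17 (adjusted p 0.482). The effects of PCN on *Lgr5* in the genotypes differed by -0.24 (95% interval -0.65 to 0.17), which did not pass. On the second probe they differed by -0.53 (95% interval -0.91 to -0.15), which did not pass either (adjusted p 0.162).

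*Axin2*, a scaffold of the complex that degrades β-catenin and a general readout of Wnt activity, was the dimmest member (chr11:108811980-108812039). On 19 of 23 arrays this probe exceeded the background. WT CONT mice had 5.57 to 6.10 (median 5.77), and WT PCN mice had 5.54, 5.24, 5.58, 5.59 and 5.82. The range was 5.38 to 5.84 in *Pxr*-/- CONT mice and in *Pxr*-/- PCN mice 5.37 to 5.72. All 4 groups overlapped. The change was -0.23 in WT mice (adjusted p 0.143; 95% interval -0.46 to -0.00) and -0.02 in *Pxr*-/- mice (interval -0.24 to 0.20).

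Of the transcription factors, *Sp5* (chr2:70315688-70315747), whose promoter window is printed above, had levels of 8.10 to 8.91 (median 8.16) in WT CONT and of 7.97, 8.05, 7.95, 7.22 and 7.91 in WT PCN mice. All treated WT mice lay below all WT controls, the lowest being replicate 4. The change of -0.45 missed the threshold (adjusted p 0.057) and was -0.31 without that mouse (adjusted p 0.181). *Pxr*-/- mice had 8.17 to 8.87 (median 8.60) without and 7.96 to 8.69 (median 8.47) with PCN. These groups overlapped, with a change of -0.18 (95% interval -0.51 to 0.15). *Tbx3*, a T-box factor at chr5:120134511-120134570, ran from 11.64 (median 11.98) to 12.65 in WT CONT mice and was 11.61, 11.68, 11.20, 11.61 and 12.35 in WT PCN mice. *Pxr*-/- CONT mice had 10.98 to 11.72 (median 11.63) and *Pxr*-/- PCN mice 11.57 to 12.10 (median 11.87). The changes after PCN were -0.35 in WT mice (adjusted p 0.213) and 0.39 in *Pxr*-/- mice (adjusted p 0.214). Their difference of -0.74 (95% interval -1.30 to -0.19) was the largest among the 10 genes in this comparison and did not pass over all genes (adjusted p 0.187). The second *Tbx3* probe gave the same signs, with a difference of -0.76 (adjusted p 0.132).

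*Glul* encodes glutamine synthetase, which joins ammonia to glutamate and is the defining enzyme of the pericentral cells. Its brightest probe (chr1:155756765-155756824) read 14.33 to 14.75 (median 14.64) in WT CONT mice and 14.63, 14.48, 14.38, 13.52 and 14.61 in WT PCN mice. The *Pxr*-/- CONT mice had 14.19 to 14.86 (median 14.78) and *Pxr*-/- PCN mice 14.79 to 15.21 (median 14.94). WT PCN replicate 4 was the lowest array of all 23. PCN changed *Glul* by -0.27 in WT mice (adjusted p 0.221; 95% interval -0.58 to 0.05) and by 0.26 in *Pxr*-/- mice (adjusted p 0.303; interval -0.04 to 0.57), and neither passed. The change in WT mice was -0.08 without replicate 4. The other 2 probes of *Glul* did not share its sign in WT mice, with 0.20 and 0.01, and gave 0.37 and 0.45 in *Pxr*-/- mice, none past the test.

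*Oat*, ornithine aminotransferase, which feeds carbon from ornithine into glutamate, was the brightest member (chr7:139749183-139749242). WT CONT mice had 15.20 to 15.64 (median 15.32) and WT PCN mice 15.93, 15.75, 16.08, 15.05 and 15.93. *Pxr*-/- CONT mice ran from 15.60 (median 15.74) to 16.32 and *Pxr*-/- PCN mice from 16.08 (median 16.42) to 16.63. In WT mice 4 treated animals lay above every control and replicate 4 lay below every control. The change in WT mice was 0.40 (adjusted p 0.0689) and became 0.56 without replicate 4 (adjusted p 0.00651). *Oat* rose in *Pxr*-/- mice by 0.54 ± 0.15 (1.45-fold; adjusted p 0.0346), but it no longer passed in 8 of the 23 single-array omissions (adjusted p 0.0534 to 0.0905), nor with the slide as a block (adjusted p 0.0819), without a filter on dim probes (0.0583) or with the authors' log2 values (0.0584). Within the washing batches the rise was 0.52 and 0.56, not past the test in either. The difference between the genotypes was -0.13 (95% interval -0.59 to 0.32).

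*Rhbg*, an ammonia channel at chr3:88047265-88047324, had the largest SD of the 10 genes in both WT groups (0.51 and 0.63). It ran from 9.07 (median 9.98) to 10.44 in WT CONT mice and was 10.68, 10.35, 10.52, 9.23 and 10.78 in WT PCN mice. *Pxr*-/- mice had 9.58 to 10.66 without and 10.11 to 10.65 with PCN. The groups overlapped throughout. The change in WT mice of 0.40 (adjusted p 0.283) became 0.66 without replicate 4 and then passed (adjusted p 0.0395), and in *Pxr*-/- mice it was 0.15 (95% interval -0.36 to 0.65). *Slc1a2*, the glutamate transporter GLT-1 at chr2:102617706-102617765, had 11.63 to 12.20 (median 11.97) in WT CONT and 11.75, 11.63, 11.80, 10.97 and 11.62 in WT PCN mice. It fell by 0.38 ± 0.13 in WT mice (1.30-fold; adjusted p 0.0368), but this was -0.24 without replicate 4 (adjusted p 0.123), and leaving out WT PCN replicate 2 or WT CONT replicate 1, 3 or 5 gave adjusted p values of 0.0585 to 0.0981. This fall also did not pass with the processed signal (adjusted p 0.0576) or without a filter on dim probes (0.0624). The same held with the slide as a block (0.0923) and with only the groups compared (0.0986). *Pxr*-/- mice had 11.70 to 12.10 without and 11.89 to 12.27 with PCN, a change of 0.22 (adjusted p 0.308). The genotypes differed in their *Slc1a2* response by -0.60 (95% interval -0.97 to -0.23), the smallest adjusted p of the 10 genes for this difference (0.0994). Without replicate 4 this difference was -0.46 (adjusted p 0.13).

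In *Pxr*-/- mice as a group, PCN thus moved 2 of the 10 genes past the test, *Znrf3* as lower and *Oat* as higher, while 3.63% of all genes fell and 3.23% rose. None was called (0.860% of all genes were called lower and 1.42% higher). The median change was 0.06, beside -0.01 over all genes. For the difference between the PCN effects, 0 of 10 members passed the test with limma. On the brightest probes 3 had an unadjusted p below 0.05, which were *Glul*, *Tbx3* and *Slc1a2*, and so did the second probe of *Lgr5*. Without WT PCN replicate 4 the difference went from -0.53 to -0.35 for *Glul* (adjusted p 0.318) and from -0.74 to -0.72 for *Tbx3* (adjusted p 0.244). Over all genes 0.508% passed as lower and 1.05% as higher, and 0.242% and 0.807% were called. Both PCN effects enter this difference, and all control mice are shared with the comparisons above.

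**Figure D2:**
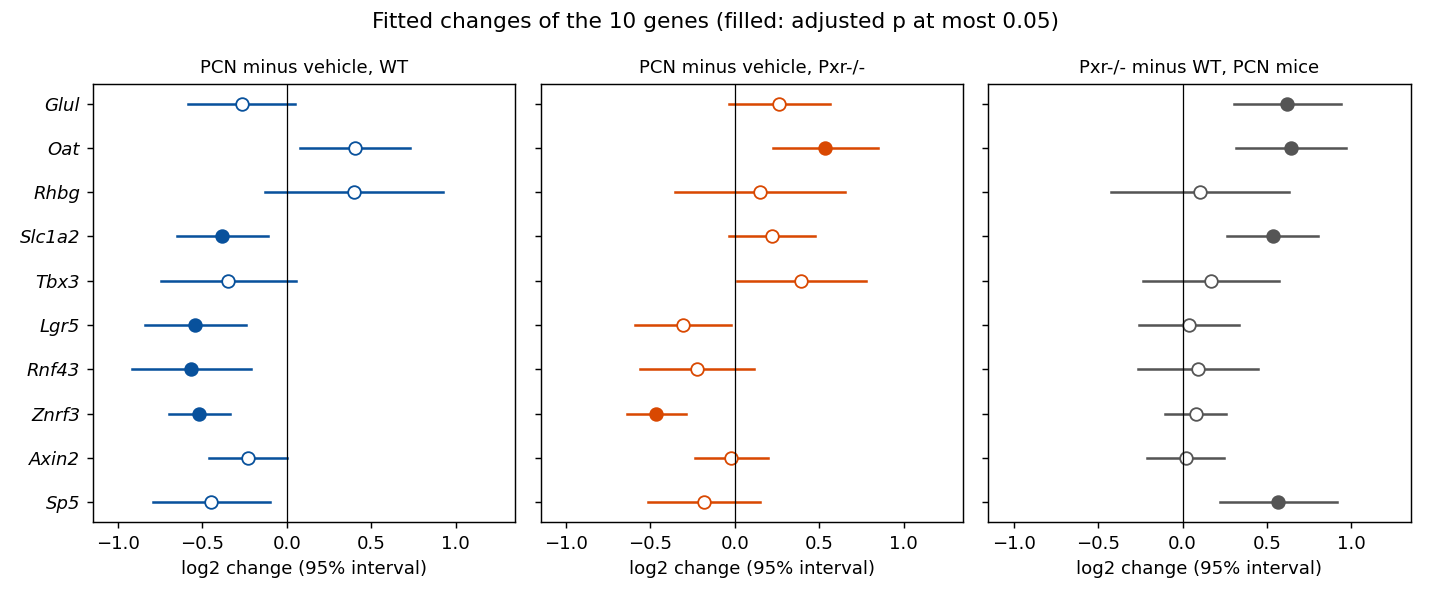
Fitted log2 change with its 95% interval (horizontal axis) for each of the 10 genes after PCN in WT mice, after PCN in *Pxr*-/- mice, and between *Pxr*-/- and WT mice given PCN. Filled points passed an adjusted p of 0.05: 4 genes lower in WT mice, *Znrf3* lower and *Oat* higher in *Pxr*-/- mice, and 4 genes higher in treated *Pxr*-/- than in treated WT mice.

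Without PCN, the genotypes did not differ past the test in any of the 10 genes. The median of the 10 differences was -0.02 and they ran from -0.57 for *Tbx3* (95% interval -0.96 to -0.19; adjusted p 0.222) to 0.51 for *Oat* (interval 0.20 to 0.82; adjusted p 0.172). On the brightest probes these 2 genes alone had an unadjusted p below 0.05. The second *Lgr5* probe gave -0.35 (unadjusted limma p 0.0116, adjusted p 0.288). Only 0.347% of all genes passed as higher and 0.147% as lower in this comparison, and 0.228% and 0.0807% were called.

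Among mice given PCN, *Glul*, *Oat*, *Slc1a2* and *Sp5* were higher in *Pxr*-/- mice. *Glul* was higher by 0.62 ± 0.15 (1.54-fold; adjusted p 0.0159), *Oat* by 0.64 ± 0.16 (1.56-fold; adjusted p 0.0159), *Slc1a2* by 0.53 ± 0.13 (1.45-fold; adjusted p 0.0147) and *Sp5* by 0.57 ± 0.17 (1.48-fold; adjusted p 0.0403). Thus 4 of 10 passed the test as higher and 0 as lower, while 3.92% of all genes were higher and 4.97% lower. *Glul* and *Oat* were called, as were 0.731% of all genes as higher and 1.36% as lower. Of 21 measured ammonia and glutamine genes outside the 10, 2 were higher and 1 lower past the test, and 0 were called. Each *Pxr*-/- PCN mouse exceeded each WT PCN mouse in *Glul* and in *Slc1a2*, whereas the groups overlapped in *Sp5* and met at a level of 16.08 in *Oat*. *Rhbg*, *Lgr5*, *Rnf43*, *Znrf3*, *Axin2* and *Tbx3* differed by 0.02 to 0.17 and did not pass. In the authors' log2 values these 6 differences lay below 0, between -0.17 and -0.09, but above 0, from 0.03 to 0.11, relative to the median of all genes in those values. Apart from replicate 4, described next, *Sp5* also no longer passed without WT PCN replicate 2, 3 or 5 or *Pxr*-/- PCN replicate 1, 3, 4, 5 or 6, with values of 0.51 to 0.60. The 2 other probes of *Glul* gave 0.44 (adjusted p 0.321) and 0.63 (adjusted p 0.0657).

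These differences depended on the processing and in part on 1 array. *Glul* did not pass with median centring (adjusted p 0.0508), the processed signal (0.0529), only the groups compared (0.06) or the slide as a block (0.0662), with values of 0.52 to 0.62. *Slc1a2* did not pass with the slide as a block (adjusted p 0.0862). *Sp5* did not pass without a filter (0.0689), with the processed signal (0.0508) or with only the groups compared (0.064). *Oat* passed in each of these. Without WT PCN replicate 4, *Glul* was higher by 0.43 (adjusted p 0.0329), *Oat* by 0.48 (adjusted p 0.0478), *Slc1a2* by 0.39 (adjusted p 0.0391) and *Sp5* by 0.43 (adjusted p 0.129), so that 3 still passed and 0 were called. Within the washing batches, *Glul* differed by 0.62 and 0.61 and *Oat* by 0.71 and 0.55, none past the test with 2 or 3 mice a group. The authors' own log2 values gave 0.32 for *Glul* and 0.41 for *Oat* (adjusted p 0.161 and 0.103); in those values the median of all genes was shifted by -0.19 in this comparison, and relative to that median the differences were 0.52 and 0.60. The mean level of 8 hepatocyte markers moved with this comparison: it lay between 16.56 and 16.69 in WT PCN mice and between 16.85 and 17.02 in *Pxr*-/- PCN mice, with 3 of 8 markers higher past the test and 0 lower. Its part in the result was not tested. In whole liver, fewer pericentral cells and less RNA per cell cannot be told apart.

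Animals of a group also differed from one another, and 4 members varied together. Each array's deviation from its group mean was compared over the 23 arrays, which share the normalization. The deviations of *Glul* correlated with those of *Rhbg* (Pearson r 0.803, Spearman rho 0.554), *Slc1a2* (r 0.744, rho 0.536) and *Oat* (r 0.678, rho 0.486). In a permutation test within groups with 100000 resamples, the adjusted p values over 9 relations were 0.0136, 0.0136 and 0.0286 for r and 0.0618, 0.0618 and 0.0831 for rho. The relation with *Lgr5* was -0.02, with *Axin2* 0.16, with *Rnf43* 0.24, with *Tbx3* 0.25, with *Znrf3* -0.29 and with *Sp5* 0.47, and none of these passed. In the first and the second washing batch, r was 0.867 and 0.784 for *Rhbg*, 0.929 and 0.269 for *Slc1a2*, and 0.872 and 0.204 for *Oat*. With the washing batch removed as well, r still passed (adjusted permutation p 0.0108, 0.0108 and 0.0243) and rho did not (0.184 each). With the authors' log2 values, rho was 0.688 for *Rhbg*, 0.732 for *Slc1a2* and 0.695 for *Oat*. These rho values passed (adjusted permutation p 0.00495, 0.00391 and 0.00391), as did r. In those values r in the second batch was 0.767, 0.531 and 0.598.

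With the values used here, these relations rested on 2 arrays, WT PCN replicate 4 and *Pxr*-/- CONT replicate 2, which lay farthest from the median of *Glul*. Without them (n = 21) r was 0.482 for *Rhbg*, 0.481 for *Slc1a2* and 0.242 for *Oat*, and the adjusted permutation p was 0.298, 0.298 and 0.679. The authors' log2 values were not tested without these arrays. Across 15057 genes with a RefSeq name, the deviations most like those of *Glul* were those of *Gna14* (r 0.88), *Tmem19* (0.866), *Fitm1* (0.853), *Cpsf4l* (0.844) and *Abcg2* (0.843). *Rhbg* ranked 25, *Slc1a2* 62 and *Oat* 157. Without the same 2 arrays the first 5 had r between 0.585 and 0.731. For these 5 the deviations were still taken from group means that included the 2 arrays, whereas those of the members were taken anew. The 5 genes were also picked with both arrays in, so their r cannot be compared with those of the members.

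**Figure D3:**
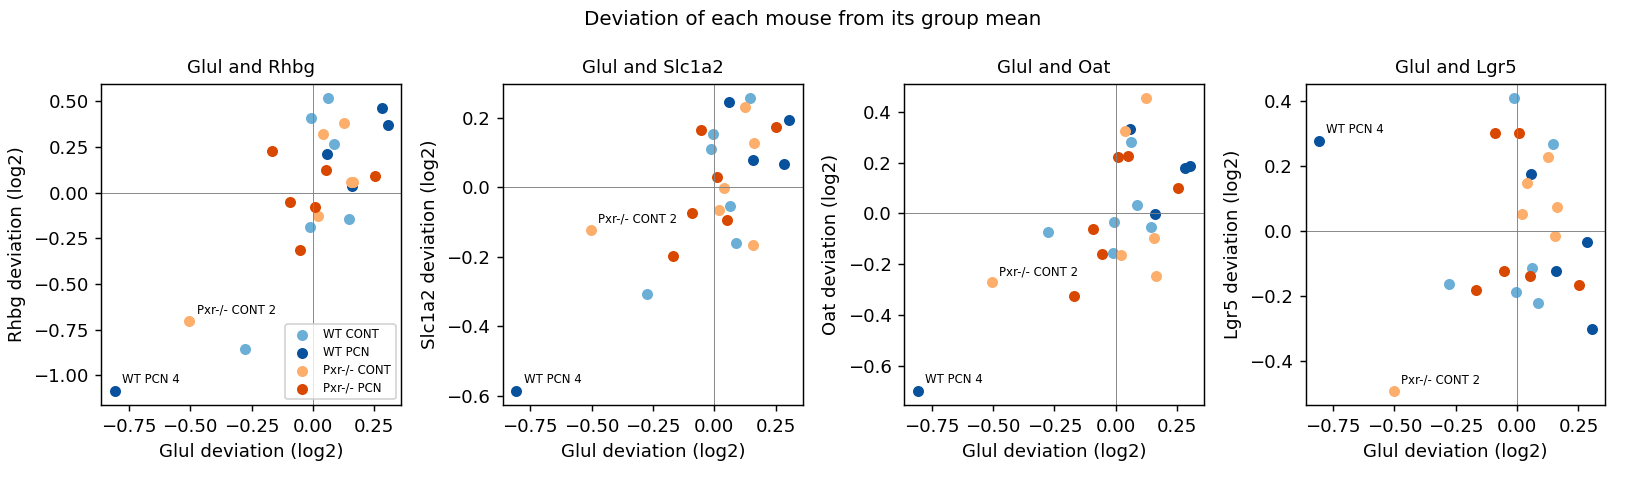
Deviation of each mouse from its group mean in *Glul* (horizontal axis, log2) against that in *Rhbg*, *Slc1a2*, *Oat* and *Lgr5* (vertical axes, log2), with 1 point per array coloured by group. WT PCN replicate 4 lies at the lower left of the first 3 panels, where r is 0.803, 0.744 and 0.678, and at the upper left for *Lgr5*, where r is -0.02.

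**Figure D4:**
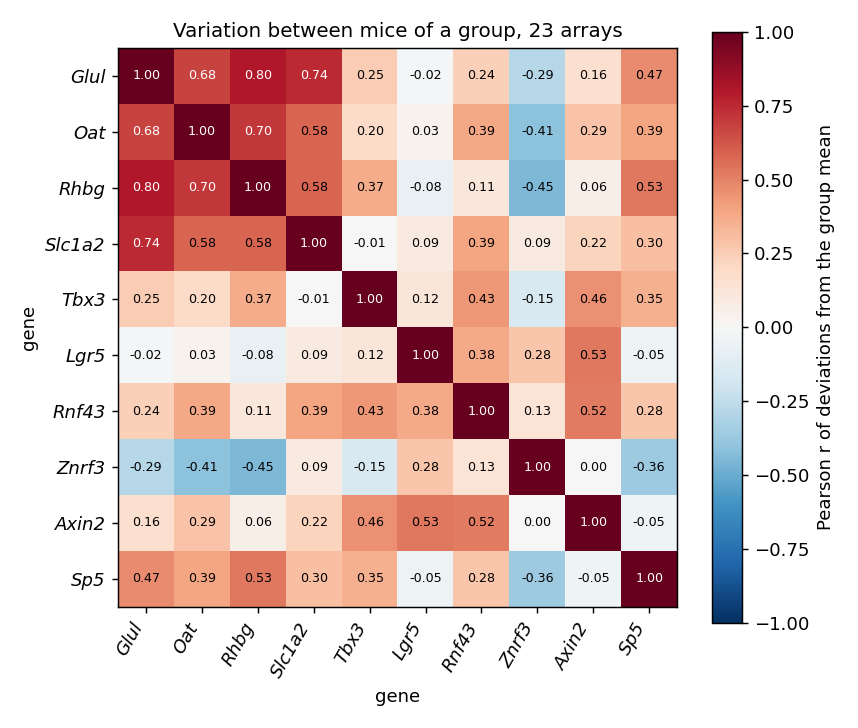
Pearson r between the deviations from the group mean for each pair of the 10 genes over 23 arrays, as numbers and as colour from blue (-1) to red (1). *Glul*, *Oat*, *Rhbg* and *Slc1a2* form a block with r from 0.58 to 0.80, while *Axin2* varies more with *Lgr5* (0.53) and *Rnf43* (0.52).

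The whole of WT PCN replicate 4 was then set beside its group. The mean level of 16 other pericentral genes was 12.14 on that array and 12.44 to 12.51 on the other 4 WT PCN arrays, and that of 20 periportal genes was 13.48, within the 13.21 to 13.48 of the others. The hepatocyte markers were at 16.69, beside 16.56 to 16.66, and the endothelial markers at 9.71, beside 9.74 to 9.96. The mean of the stellate markers, collagen genes among them, was 10.69, beside 9.89 to 10.50, the highest of all 23 arrays. The lymphocyte markers were at 8.10, beside 7.64 to 8.01. Thus on this array pericentral genes beyond the 10 were low as well, and stellate, lymphocyte and hepatocyte marker levels were the highest of its group. On *Pxr*-/- CONT replicate 2, the other pericentral genes were at 11.81, beside 12.34 to 12.54 in its group, and the periportal genes at 13.93, beside 13.51 to 13.83. These were the lowest pericentral and the highest periportal means of the *Pxr*-/- CONT group, and its lymphocyte markers, at 8.39, were the highest of all 23 arrays. The part of these markers in the results was not tested.

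The wider Wnt pathway and liver zones were described with 8 gene lists, which held 127 measured genes. After PCN in WT mice 16 of them were called (9 higher, 7 lower), after PCN in *Pxr*-/- mice 12 (8 higher, 4 lower), and between the genotypes under PCN 11 (6 higher, 5 lower). Over all genes, 3.79% were called higher and 2.39% lower in WT mice, 1.42% and 0.860% in *Pxr*-/- mice, and 0.731% and 1.36% between the genotypes under PCN. The counts past the test given below for each list stand beside 11.6% of all genes higher and 12.4% lower in WT mice. In *Pxr*-/- mice these shares were 3.23% and 3.63%.

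In the list of Wnt ligands and R-spondins, which also holds *Porcn* and *Wls*, genes that modify and secrete Wnt proteins, 13 of 25 genes were measured. *Wnt2*, *Wnt9b* and *Rspo3*, the ligands known from liver endothelium, did not pass after PCN in either genotype. *Wnt2* changed by -0.38 in WT mice (95% interval -0.89 to 0.12) and by 0.33 in *Pxr*-/- mice (interval -0.15 to 0.82). *Wnt9b* changed by -0.08 and 0.11, and *Rspo3* by -0.03 and -0.06. *Wnt4* rose in both genotypes, by 0.74 in WT mice (adjusted p 0.0199) and by 0.81 in *Pxr*-/- mice (adjusted p 0.0258), *Wnt5a* rose by 0.78 in WT mice (adjusted p 0.00238) and *Wnt5b* by 0.87 in *Pxr*-/- mice (adjusted p 0.00911). In all, 2 genes of this list rose and 2 fell past the test in WT mice, and 2 rose and 1 fell in *Pxr*-/- mice. Those that fell (named after their values were seen) were the ligand gene *Wnt9a* and the acyltransferase gene *Porcn* in WT mice, and *Porcn* in *Pxr*-/- mice.

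Of 13 measured receptor genes, 1 rose and 2 fell past the test in WT mice. *Fzd4*, a Frizzled receptor, was the one called, with a fall of 0.77 (1.71-fold; adjusted p 0.00193). *Lgr4*, the broadly expressed relative of *Lgr5*, changed by -0.11 in WT mice (95% interval -0.31 to 0.08) and by 0.10 in *Pxr*-/- mice. *Fzd7* was lower in treated *Pxr*-/- than in treated WT mice by 0.73 (the change was -0.73; adjusted p 0.00821). Of 9 measured Wnt inhibitors, 1 rose in WT mice and 0 changed past the test in *Pxr*-/- mice.

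Of 25 measured components of the intracellular β-catenin pathway, 9 fell and 1 rose past the test in WT mice, and 6 fell and 1 rose in *Pxr*-/- mice, with medians of -0.14 and -0.14 beside -0.02 and -0.01 over all genes. *Ctnnb1*, which encodes β-catenin, changed by -0.07 in WT mice (95% interval -0.18 to 0.05) and by 0.02 in *Pxr*-/- mice (interval -0.09 to 0.13). *Tcf7l2*, the main TCF factor of liver, fell by 0.36 in WT mice (adjusted p 0.0167) and by 0.46 in *Pxr*-/- mice (adjusted p 0.00936), while its 3 other probes changed by -0.35 to -0.13 in WT mice and did not pass. *Tle2*, a co-repressor of TCF factors, fell by 0.74 in WT mice, as did the β-catenin cofactor *Bcl9l* by 0.62 and *Btrc*, a substrate receptor of the ligase that degrades β-catenin, by 0.59. The other *Btrc* probe gave 0.05 and did not pass. Other probes of *Bcl9l* gave -0.55 and -0.36, both past the test but not called. *Tle3* rose by 0.74 on its brightest probe, and its other probes gave 0.06, 0.70 and 0.49.

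Among other β-catenin targets, 5 of 15 measured genes rose and 2 fell past the test in WT mice. *Myc*, a driver of growth, rose by 2.77 (6.81-fold), from 7.02 ± 0.48 (SD, n = 6) to 9.81 ± 0.29 (n = 5). *Jun* rose by 1.24, *Cd44* by 0.80 and *Sox9* by 0.76. Other probes gave 1.59 for *Myc*, 0.92 for *Cd44* and 0.30 for *Sox9*, the last not called. In *Pxr*-/- mice *Prox1* rose by 0.70 and *Tnfrsf19* fell by 0.62, and these were the only 2 of the 15 past the test. The same 2 genes differed the other way between the genotypes without PCN, where *Tnfrsf19* was called higher and *Prox1* lower in *Pxr*-/- mice. Over the 23 single-array omissions these differences ran from 0.60 to 0.81 and from -0.85 to -0.65. They no longer passed in 7 and in 10 of these omissions. *Myc*, *Jun* and *Sox9* were lower in treated *Pxr*-/- than in treated WT mice, with differences of -2.05, -0.98 and -0.76. In WT mice 3 of 10 stellate cell markers rose and 1, *Ecm1*, fell (by 0.41). The risen ones were *Col1a1* by 3.17, *Col1a2* by 2.18 and *Col3a1* by 2.18 (all 4 named after their values were seen), and these 3 rose in *Pxr*-/- mice by 1.96, 1.38 and 1.22. Their other probes in WT mice gave 3.24 and 3.27 for *Col1a1*, 1.28 and 0.863 for *Col1a2*, and 0.996 and 0.998 for *Col3a1*. In *Pxr*-/- mice 4 of the 10 stellate markers rose past the test and 0 fell. The median change of the 10 stellate markers was 0.16 in WT mice (7 higher, 3 lower) and 0.11 in *Pxr*-/- mice (9 higher, 1 lower), far below the rises of the 3 collagen genes. These 3 enter the mean level of the 10 markers. That mean ran from 9.38 to 9.82 in WT CONT, from 9.89 to 10.69 in WT PCN, from 9.27 to 9.73 in *Pxr*-/- CONT and from 9.39 to 10.46 in *Pxr*-/- PCN mice. Its part in these results was not tested.

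**Figure D5:**
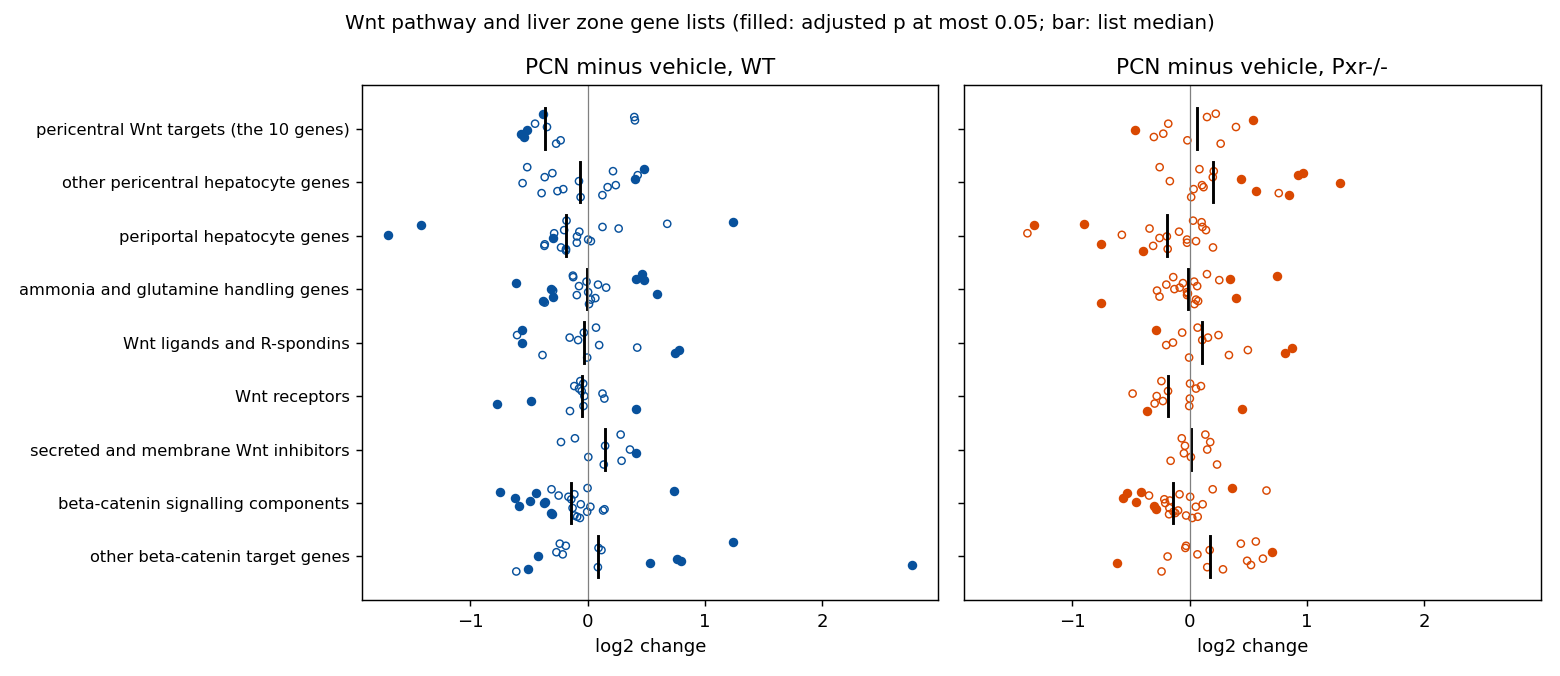
Log2 change after PCN (horizontal axis) of every measured gene of the 10 pericentral Wnt targets and of 8 other lists, in WT mice (left) and *Pxr*-/- mice (right), with filled points past an adjusted p of 0.05 and a black bar at each list's median. The median of the 10 genes lies at -0.36 in WT mice and at 0.06 in *Pxr*-/- mice.

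Of 16 measured pericentral genes outside the 10, 2 rose and 0 fell past the test in WT mice, with a median of -0.07. *Cyp2e1*, an abundant pericentral cytochrome P450, changed by -0.06 (95% interval -0.19 to 0.07) and *Cyp1a2*, another, by 0.13 (interval -0.32 to 0.58). Of these 16 genes 6 rose and 0 fell in *Pxr*-/- mice, with a median of 0.20. The called ones were *Cyp1a2* (0.85), the dicarboxylate transporter *Slc13a3* (1.28), the dioxin receptor *Ahr* (0.92) and the xenobiotic receptor CAR, *Nr1i3* (0.97). The response to PCN differed between the genotypes for *Slc13a3*, *Nr1i3* and *Gulo*, which makes the last step of vitamin C synthesis, by -1.83, -1.27 and -0.82 (adjusted p 0.00321, 0.0213 and 0.00337). Treated *Pxr*-/- mice exceeded treated WT mice in *Cyp1a2* (0.84), *Gulo* (0.71), *Slc13a3* (1.25) and *Nr1i3* (0.86). Without PCN, *Lhpp* (0.63) and *Cyp2a5* (0.76) were higher in *Pxr*-/- mice. *Lhpp* passed in all 23 single-array omissions, whereas *Cyp2a5* did not pass in 9 of them (adjusted p up to 0.103).

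At the portal end of the axis, 1 of 20 genes rose and 3 fell past the test in WT mice, and 0 rose and 4 fell in *Pxr*-/- mice, with medians of -0.18 and -0.19. *Cyp2f2*, a periportal cytochrome P450, changed by -0.18 in WT mice (adjusted p 0.2) and fell by 0.40 in *Pxr*-/- mice (adjusted p 0.0163). *Pck1*, the gluconeogenic enzyme, fell by 1.70 in WT mice, *Etnppl*, which breaks down phosphoethanolamine, by 1.42, and the mitochondrial aldehyde dehydrogenase *Aldh1b1* rose by 1.24. Other probes of *Etnppl* gave -3.39 and -1.28 in WT mice. In *Pxr*-/- mice *Etnppl* fell by 1.32, the glycine cleavage gene *Gldc* by 0.90 and the liver glutaminase *Gls2* by 0.76. Under PCN, *Pck1* and the serine dehydratase *Sds* were higher in *Pxr*-/- than in WT mice by 1.27 and 1.08, and *Gldc* was lower (-1.47).

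Around the glutamine synthesis of the pericentral cell, 21 of 24 ammonia and glutamine genes were measured. In WT mice 4 rose and 4 fell past the test, with a median of -0.01. *Asl*, the urea cycle lyase, rose by 0.59, while its other probe gave -0.24 and did not pass, and *Slc38a5*, a glutamine transporter, fell by 0.61. After PCN in *Pxr*-/- mice 3 rose and 1 fell, among them the proline synthesis gene *Pycr1* with 0.75 and *Gls2* as above.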

How the data were processed

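Per the file headers, the authors scanned 1-colour Agilent SurePrint arrays and extracted spot intensity values with Feature Extraction 10.10.1.1; the deposited files are this scanner output, with probe positions on build mm9. A deposited table holds log2 values, which the authors made from the median signal by filtering, washing batch correction and CrossNorm normalization; it was used as an alternative. Here log2 median signal was used. Outlier-flagged spots (2225) were set to missing, spots of a probe were averaged, and probes well above background on over 50% of the arrays of a group (32087) were quantile normalized. limma 3.58.1 in R 4.3.3 was fitted to all 4 groups with a washing batch term, and p-values were adjusted (Benjamini-Hochberg) over all kept probes. The number of arrays limits the precision. A gene was read from its brightest kept probe. The scripts were tested on simulated data.

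The genes and lists were chosen with earlier results of these data known. Named genes were the 10 members with all their probes, up to 4 genes per list with the largest change among those called for PCN in WT mice, genes called in another contrast where these were 5 or fewer, 9 genes named in any case (*Ctnnb1*, *Cyp1a2*, *Cyp2e1*, *Cyp2f2*, *Lgr4*, *Rspo3*, *Tcf7l2*, *Wnt2* and *Wnt9b*), the 5 genes most like *Glul*, and *Nr1i2* and *Cyp3a11*. The alternatives were other signals, background corrections, normalizations, filters and batch terms, the groups compared alone, single batches, and leaving out each array.

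Of the marker lists not described above, Kupffer cell markers changed past the test in 0 of 10 genes after PCN in either genotype. In WT mice endothelial markers passed as lower in 2 of 12, cholangiocyte markers as higher in 1 of 7, lymphocyte markers as lower in 1 of 7, blood markers as higher in 1 and lower in 1 of 7, and pancreas markers in 0 of 3; in *Pxr*-/- mice none of these did. Hepatocyte markers passed as lower in 2 of 8 in WT mice and as higher in 2 of 8 in *Pxr*-/- mice. *Cftr*, *Cd79a*, *Prss1*, *Cpa1* and *Pnlip* were not above background.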

Additional observations from a re-analysis of the deposited data

Results flagged for a closer look

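In 8 of the 40 combinations of gene and group, 1 mouse lay far from the rest of its group by Dixon's criterion, which chance meets in about 1 of 20 groups. WT PCN replicate 4 was the low one for *Glul* (13.52), *Sp5* (7.22), *Rhbg* (9.23) and *Slc1a2* (10.97). *Pxr*-/- CONT replicate 2 was low for *Glul* (14.19) and *Lgr5* (7.72). WT CONT replicate 2 was low for *Glul* (14.33), and WT CONT replicate 4 was high for *Sp5* (8.91).

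The effect of PCN differed between WT and *Pxr*-/- mice, by the test of the difference itself and by over 1.5-fold, for 7 genes of the wider lists. One more, *Glud1* (-0.45, named after its value was seen), passed the test without the fold limit. The WT change minus the *Pxr*-/- change was -0.82 for *Gulo*, -1.83 for *Slc13a3* and -1.27 for *Nr1i3* among the pericentral genes, and 1.58 for the periportal *Gldc*. Among β-catenin targets it was 2.24 for *Myc*, 1.16 for *Tnfrsf19* and -0.96 for *Prox1*. *Tnfrsf19* and *Prox1* also differed between the genotypes without PCN, as given above. The difference between the PCN effects no longer passed for *Prox1* in 13 of the 23 fits that left out 1 array (adjusted p up to 0.0733) and for *Gldc* in 1 of 23.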

How the results depend on the processing

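With the authors' log2 values, 1 member was called (*Oat*, higher) and 2 passed (*Oat* higher, *Znrf3* lower) after PCN in WT mice, 1 passed in *Pxr*-/- mice, and 0 were called and 0 passed between genotypes under PCN; the wider lists gave 19 calls between genotypes under PCN, 2 without PCN and 4 for the difference. Those values shift the median of all genes by -0.19 between genotypes under PCN, where 5% of 1095 called genes were higher, against 34.9% of 441 here; after PCN in WT mice 84.3% of calls were higher against 61.3%, in *Pxr*-/- mice 73.6% against 62.4%, for the difference 87.7% against 76.9%, and without PCN 45% against 73.8%. With the processed signal, 1 member was called after PCN in WT mice, 1 was called and 2 passed between genotypes under PCN, and the lists gave 25 calls in WT mice. Median centring gave 1 called between genotypes under PCN. Without a filter 1 passed in *Pxr*-/- mice, and the lists gave 1 call without PCN. With only the groups compared, 1 was called and 2 passed between genotypes under PCN, and the lists gave 2 calls without PCN. With the slide as a block, 1 passed in *Pxr*-/- mice, 1 was called and 2 passed between genotypes under PCN, and the lists gave 1 call without PCN and 4 for the difference. Within the first batch 3 were called in WT mice, 0 passed in *Pxr*-/- mice and 0 were called or passed between genotypes under PCN, and the lists gave 1 call in *Pxr*-/- mice, 7 between genotypes under PCN, 0 without it and 3 for the difference; within the second 0 passed in WT mice, 0 in *Pxr*-/- mice and 0 between genotypes, and the lists gave 6 calls in WT mice, 2 in *Pxr*-/- mice, 3 between genotypes under PCN, 1 without PCN and 2 for the difference.

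Leaving out 1 array at a time gave 0 to 2 called and 2 to 5 passed after PCN in WT mice, 0 to 1 and 1 to 2 in *Pxr*-/- mice, 0 to 4 and 3 to 4 between genotypes under PCN (0 called without WT PCN replicate 4, 1 without *Pxr*-/- PCN replicate 3 and 4 without WT PCN replicate 1), and 0 to 0 for the other comparisons. The lists gave 12 to 19, 7 to 13, 7 to 14, 1 to 4 and 5 to 10 calls in WT mice, in *Pxr*-/- mice, between genotypes under PCN, without PCN and for the difference. Without WT PCN replicate 4 and *Pxr*-/- CONT replicate 2, 0 relations with *Glul* passed.

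Signs turned only for values that had not passed. With the authors' values the genotype difference under PCN was -0.10 for *Axin2*, -0.17 for *Lgr5*, -0.14 for *Rhbg*, -0.15 for *Rnf43*, -0.0882 for *Tbx3* and -0.12 for *Znrf3*, that without PCN -0.0038 for *Glul* and -0.11 for *Znrf3*, the PCN change in WT mice 0.10 for *Ctnnb1*, 0.0289 for *Cyp2e1*, 0.0273 for *Cyp2f2*, 0.0366 for *Lgr4*, 0.12 for *Rspo3* and 0.0281 for *Wnt9b*, and the difference 0.0399 for *Oat* and 0.0077 for *Znrf3*. Normexp correction gave -0.0002 and the slide block -0.0043 for *Axin2* under PCN, and the block -0.0097 for *Cyp2e1* in *Pxr*-/- mice. The first batch gave -0.15 for *Axin2* under PCN, -0.10 for *Glul* and -0.10 for *Znrf3* without PCN, -0.22 for *Cyp1a2*, 0.033 for *Lgr4* and 0.20 for *Rspo3* in WT mice, -0.0295 for *Lgr4* and 0.0365 for *Rspo3* in *Pxr*-/- mice, and -0.0695 for the difference in *Rhbg*. The second gave 0.006 for *Axin2*, -0.0539 for *Rhbg* and -0.0789 for *Wnt9b* in *Pxr*-/- mice, 0.10 for *Cyp2e1* and 0.0627 for *Wnt9b* in WT mice, -0.14 for *Lgr5*, -0.044 for *Rhbg* and -0.17 for *Rnf43* under PCN, 0.0629 for *Lgr5* and 0.17 for *Slc1a2* without PCN, and 0.20 for *Lgr5* and 0.11 for *Znrf3* in the difference. Leaving out 1 array moved across 0, in *Pxr*-/- mice, *Ctnnb1* (-0.0067 to 0.0469), *Cyp2e1* (-0.0054 to 0.0246) and *Axin2* (-0.065 to 0.0412); in WT mice, *Wnt9b* (-0.1486 to 0.0408) and *Rspo3* (-0.0734 to 0.0474); under PCN, *Rnf43* (-0.0311 to 0.1897), *Rhbg* (-0.1582 to 0.2292), *Lgr5* (-0.0455 to 0.1071) and *Axin2* (-0.0707 to 0.0795); *Znrf3* without PCN (-0.0252 to 0.0911); and in the difference, *Oat* (-0.2178 to 0.0244) and *Znrf3* (-0.1048 to 0.0107). The cause of these changes was not tested.

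The replicate numbers were not taken to pair the mice, since only 11 of 33 same-numbered pairs of different groups had deviations that correlated above 0.1 (range -0.237 to 0.481). Their median was 0.0638, beside -0.0299 for other-numbered pairs, and 10 of 23 arrays matched their own number best, which is a hint from the data and not from the design. The washing batch was not removed in this check. All replicate 1 arrays were in the first batch and all replicate 6 arrays in the second, so number and batch are partly mixed here. With the replicate number as a block, 0 members were called and 4 passed after PCN in WT mice, 2 passed in *Pxr*-/- mice, 2 were called and 4 passed between genotypes under PCN, and the lists gave 14, 13, 12, 4 and 6 calls in the order just given for single arrays; of the named genes *Prox1* lost its call, without PCN and for the difference.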
